A study of Mus musculus with 33 samples.

Results

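The T cell receptor complex and the signalling proteins nearest to it were followed through 10 genes in sorted immune cells of a mouse islet xenotransplantation model. The genes were named for their place in the receptor complex, and their rows are those whose identifiers GENCODE vM21 (GRCm38) pairs with these symbols, and they are 10 of the 31054 features counted. They are 4 CD3 chains (Cd3d, Cd3e, Cd3g, Cd247), 3 T cell receptor constant genes (Trac, Trbc1, Trbc2) and 3 signalling genes (Lck, Zap70, Lat). Bulk RNA-Seq covered 33 libraries, 3 for each of 11 sorted subsets. The 7 Treg subsets (CD4+GFP+) were splenic Tregs of naive mice (SP/naive), splenic Tregs of tolerant mice with little or much of the IL-7 receptor chain CD127 (SP/CD127-/lo and SP/CD127hi), Tregs from the graft, and the same 3 kinds of Tregs from the graft-draining kidney lymph node (DLN/naive from naive mice, DLN/CD127-/lo and DLN/CD127hi from tolerant mice). The 4 Foxp3- subsets were splenic CD4+ T cells (CD4+GFP-) and CD45+CD4- cells, the latter sorted after depletion of CD4+ cells on beads, each from naive and from tolerant mice. All mice were DEREG mice on the C57BL/6 background. They carry a transgene for the diphtheria toxin receptor and enhanced GFP under the Foxp3 promoter, so that the Treg sort followed activity of that promoter. Tolerant mice had received 4000 islet equivalents of porcine neonatal islet cell clusters under the renal capsule, CTLA4-Fc (500 µg) and MR-1, an antibody against CD154 (500 µg a dose), and their cells were sorted at day 100. Naive mice had neither transplant nor treatment, and the age at sorting is not given in the sources used here. Per the study, the tolerant mice and the naive mice used for spleen were male, while the naive mice used for lymph nodes were female. Libraries were made from pooled mice, and whether the 3 libraries of a naive subset came from separate mice is unclear, so that p-values measure the spread between these libraries, which may in part be technical.

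The T cell receptor that recognises peptide on MHC is a pair of alpha and beta chains, each built from a rearranged variable part and a constant part. The chains have almost no cytoplasmic tail, and signals pass through the CD3 gamma, delta, epsilon and zeta chains that assemble with them. On engagement, the kinase Lck, held near the receptor by CD4 or CD8, phosphorylates the CD3 chains, Zap70 docks on them and is activated, and Zap70 then phosphorylates Lat, the membrane scaffold from which calcium and Ras signals start. Tregs need T cell receptor signals to keep their suppressive activity. CD45+CD4- cells of the spleen are mostly B cells and myeloid cells, with CD8+ and gamma delta T cells and NK cells among them, so that part of this population also carries the receptor.

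Foxp3 and Cd4 followed the labels of the sorts. Foxp3 had at least 166 CPM in every Treg library and at most 8.20 CPM in every Foxp3- library, and Cd4 lay between 220 and 426 CPM in CD4+ T cells. In Treg libraries, Cd4 ran from 42.7 CPM (DLN/naive) to 241 CPM (SP/naive), and it reached 33.6 CPM in a library of CD45+CD4- cells. CPM are counts scaled to a common library size by the TMM method of edgeR, throughout. EGFP, the reporter, had 0 counts in all 6 CD4+ T cell libraries and reached 3.57 CPM in a library of CD45+CD4- cells. It had 37.2 to 149 CPM in the Treg libraries of spleen and graft and 1.64 to 80.1 CPM in those of the DLN, where the first DLN/CD127-/lo library (1.64 CPM) and the first DLN/naive library (2.84 CPM) lay below that of the CD45+CD4- library. Read pairs counted on genes ranged from 2550698 to 4615283 in the 24 libraries of spleen and graft and from 844039 to 1935323 in the 9 DLN libraries. The limit that a count of 0 allows, 3 counts, was therefore 0.650 to 1.18 CPM in the former and 1.55 to 3.55 CPM in the latter, for counting error only. The DLN libraries were run on a MiSeq and the rest on a NextSeq 500, so for the DLN an effect of tissue and one of the instrument cannot be told apart.

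The coding sequences of the constant genes are shown first, since Trbc1 and Trbc2 are near-identical copies whose reads can be confused. Both lie on chromosome 6 (Trbc1 at chr6:41538218-41539881 and Trbc2 at chr6:41546730-41548352, plus strand, GRCm38), and Trac lies at chr14:54220521-54224206. In the annotated transcripts, 23 of the 518 coding bases aligned between Trbc1 and Trbc2 differed, which is 95.6% identity. Exon 1 differed at 1 of 375 bases and held an identical run of 259 bases, so that a read pair lying within that run fits both genes. The largest number of differences fell in exon 3, which encodes part of the chain's anchor in the membrane. There, 15 of 107 bases differed, and these are the bases in capitals:
Trbc1 exon 3 (chr6:41539229-41539335): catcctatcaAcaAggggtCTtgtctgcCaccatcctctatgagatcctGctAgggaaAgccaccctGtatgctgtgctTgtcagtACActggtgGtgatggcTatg
Trbc2 exon 3 (chr6:41547772-41547878): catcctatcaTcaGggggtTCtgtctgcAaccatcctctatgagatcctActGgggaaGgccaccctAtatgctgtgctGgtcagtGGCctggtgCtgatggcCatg

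The CD3 gamma, delta and epsilon genes are neighbours on chromosome 9, with Cd3g (chr9:44969572-44980431, minus strand) and Cd3d (chr9:44981786-44987339, plus strand) transcribed away from starts that are 1354 bases apart. Cd3e (chr9:44998740-45009627, minus strand) closes a cluster of 40.1 kb. The promoter windows of RefSeq (GRCm38.p6), which run from 250 bases before to 50 after a start, were present for 7 of the 10 genes, all but the 3 constant genes. The windows were searched for 3 short words after the sequences had been looked at. The E-box CAGGTG, read as CACCTG on the other strand and the kind of site that E proteins bind, stood in 6 of the 7 windows (Cd3d, Cd3e, Cd3g, Cd247, Lck and Zap70), against 20.03% of all 27025 windows. The ETS-type word AGGAAG, or CTTCCT on the other strand, stood in 6 windows, all but that of Cd3g, against 35.1%, and the RUNX-type word TGTGGT, or ACCACA on the other strand, in the windows of Lck and Lat, against 16.9%. A match is a description of these letters and not a binding site. The E-boxes upstream of Cd3g and Cd3d, the genes called together between CD127hi and CD127-/lo Tregs of the spleen, and that of Cd247 are shown with the E-box in capitals, each 5′ to 3′ on the strand of its gene:
Cd3g, 148 bases before the start (chr9:44980553-44980600): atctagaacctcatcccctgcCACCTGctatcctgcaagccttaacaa
Cd3g, 35 bases before the start (chr9:44980440-44980487): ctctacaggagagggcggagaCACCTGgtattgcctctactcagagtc
Cd3d, 112 bases before the start (chr9:44981653-44981700): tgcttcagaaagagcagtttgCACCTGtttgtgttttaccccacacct
Cd247, 10 bases before the start (chr1:165788650-165788680): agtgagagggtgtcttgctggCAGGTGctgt

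All 10 genes had at least 1 count in every library of the 11 subsets and passed the filter on low counts, although Zap70 had only 1 count in the third DLN/CD127hi library, which is under the limit that a count of 0 allows. For the subset means, the lowest of the 11 means was that of tolerant CD45+CD4- cells for all genes but Trac, for which it was that of naive CD45+CD4- cells. For Cd247 and Zap70, DLN or graft Tregs lay among or below the level of naive CD45+CD4- cells. Levels between genes were compared per kilobase of exon. In this unit, Trbc1 and Trbc2 ranked first and second in every subset, Cd3d and Trac took ranks 3 to 5, Lck ranks 4 to 6, Cd3g ranks 5 and 6, Lat was seventh, Cd3e eighth, and Cd247 and Zap70 had the lowest values. The exon length includes bases shared with a gene on the other strand, whose read pairs were assigned to neither gene. These were 3007 of 5329 exon bases in Cd247 and 135 of 4080 in Cd3e, so that the level of Cd247 per kilobase is understated and its place in the order is uncertain. In naive CD4+ T cells, the levels per kilobase ran from 2313 ± 688 CPM for Trbc1 to 43.5 ± 11.01 CPM for Zap70 (SD, n = 3), with 1414 ± 38.2 for Cd3d and 548 ± 64.7 for Lck. The order of the signalling genes was thus Lck, Lat and Zap70 from high to low.

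**Figure D1:**
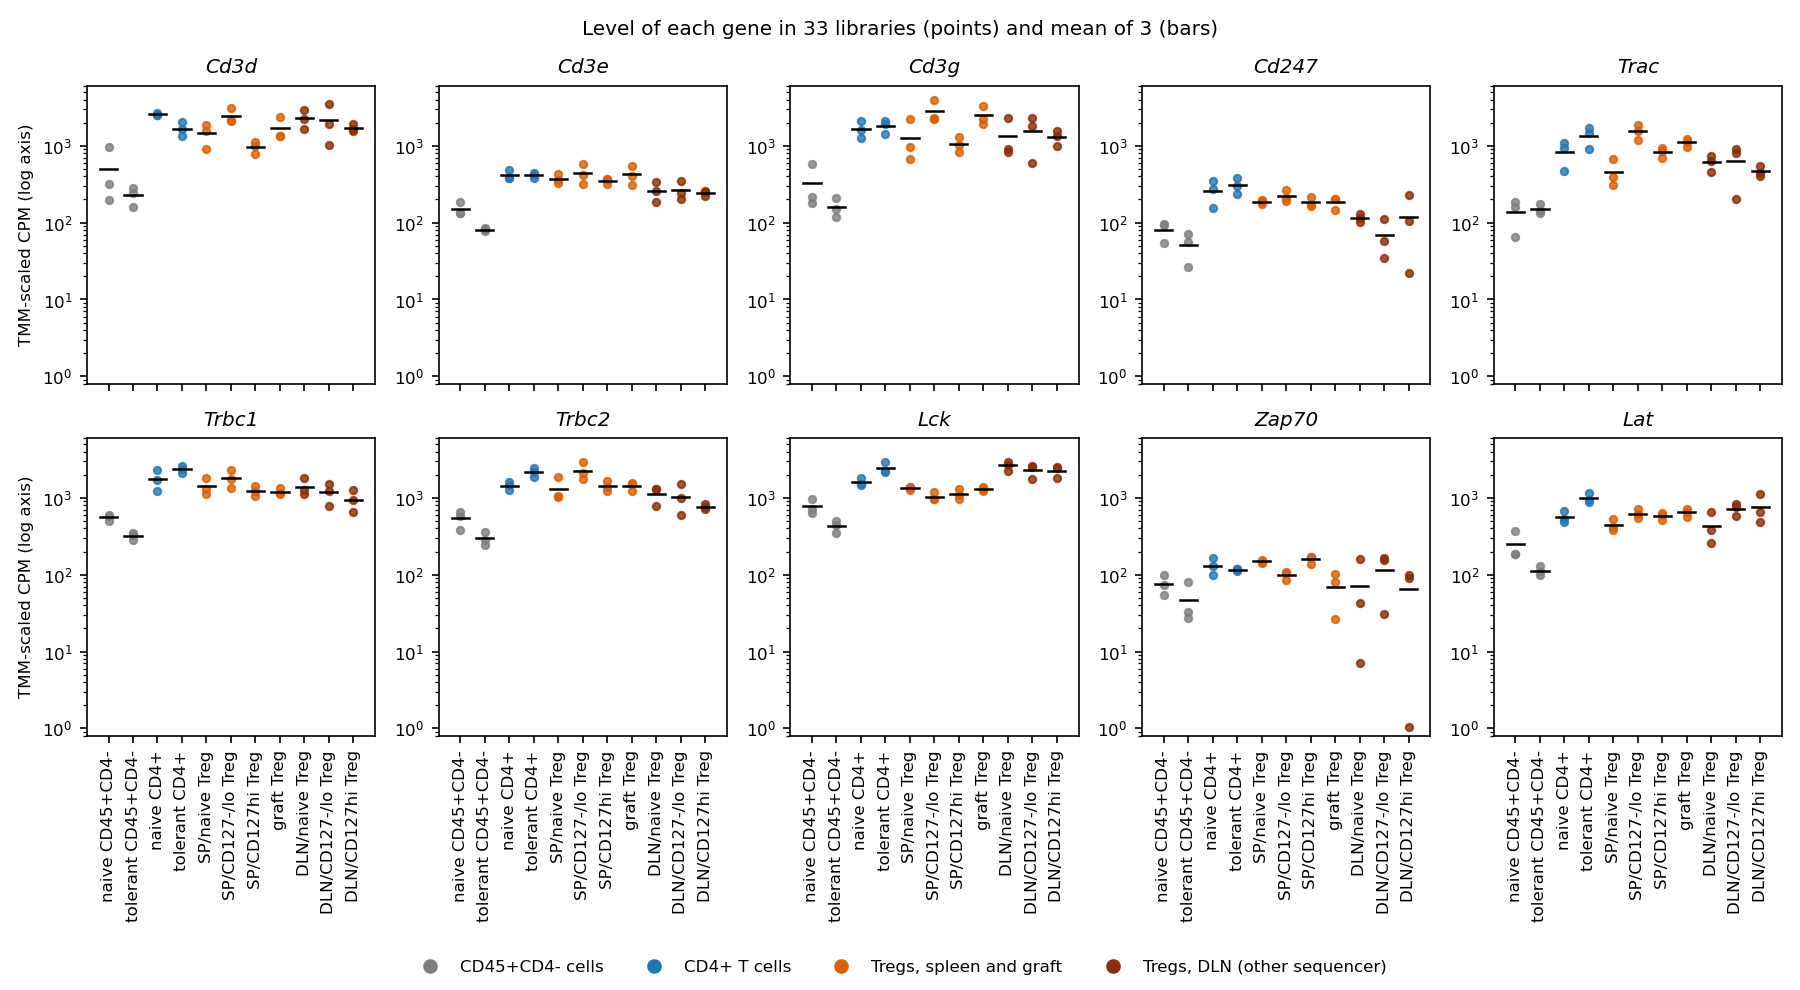
TMM-scaled CPM (log axis) of the 10 genes in each library of the 11 subsets, one panel per gene, with a bar at the mean of 3 libraries. The CD45+CD4- libraries lie below all T cell libraries for Cd3g, Trac and Trbc1, and Zap70 has the widest spread, from 1.04 to 172 CPM.

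Across the 9 T cell subsets, the ratio of the highest to the lowest mean was between 1.81 for Cd3e and 4.49 for Cd247. When the 11 subsets were ordered by their means, neighbours in the order mostly overlapped in their libraries. Of the 10 pairs of neighbours, none was separated for Cd3d, 1 for Cd3g, Cd247, Zap70 and Lat, 2 for Cd3e, Trac, Trbc1 and Lck, and 3 for Trbc2. For Trbc1, Trbc2 and Cd3e, one of these gaps lay between the lowest T cell subset, DLN/CD127hi Tregs, and naive CD45+CD4- cells, and the next between naive and tolerant CD45+CD4- cells. For Lck, the gap within T cells lay between naive CD4+ T cells (1604 ± 189 CPM) and SP/naive Tregs (1345 ± 67.7 CPM; SD, n = 3), with DLN/naive Tregs, tolerant CD4+ T cells and both other DLN subsets above it. For Trac, it lay between graft Tregs (1112 ± 134 CPM) and SP/CD127hi Tregs (831 ± 129 CPM), with SP/CD127-/lo Tregs and tolerant CD4+ T cells above. Cd3d was highest in naive CD4+ T cells (2566 ± 69.3 CPM) and lowest among T cells in SP/CD127hi Tregs (965 ± 160 CPM), but 1 library of naive CD45+CD4- cells, with 964 CPM, reached the level of that subset.

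The comparison of CD4+ T cells with CD45+CD4- cells, each within naive or within tolerant spleens, gives the contrast between a pure T cell sort and one that holds T cells in part. Cd3d, Cd3g, the 3 constant genes and Lck were higher in CD4+ T cells in both naive and tolerant mice. In naive mice, 6 of the 10 genes were called higher and none lower, where 1.04% of the 25347 genes tested were called. In tolerant mice, 9 of 10 were called higher, all but Zap70, where 1.53% of genes were called. The median log2 fold change of the 10 genes was 1.54 in naive and 2.87 in tolerant mice, beside 0.00 and -0.05 over all genes tested. Here and below, a gene was called when its p from the quasi-likelihood test of edgeR, adjusted by Benjamini and Hochberg's method over all genes tested, was under 0.05.

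Trac, the only alpha chain constant gene, had 934, 464 and 1080 CPM in naive CD4+ T cells and 65.7, 186 and 162 CPM in naive CD45+CD4- cells. The lowest of the former was above the highest of the latter, and the difference was 6.00-fold (log2 2.58, SE 0.38, adjusted p = 4.46e-08). In tolerant mice, Trac had 1687, 900 and 1449 CPM against 177, 143 and 135 CPM, a difference of 8.89-fold. Cd3g, the CD3 gamma chain, was higher by 5.04-fold in naive (adjusted p = 2.81e-09) and by 11.3-fold in tolerant mice (adjusted p = 2.8e-18), the largest fold among the 10 genes in the latter. Cd3d, the delta chain, was higher by 5.21-fold and 7.35-fold. Without the third naive CD45+CD4- library, the log2 fold changes in naive mice rose from 2.38 to 3.26 for Cd3d and from 2.33 to 3.002 for Cd3g. Of the beta chain genes, Trbc1 was higher by 3.08-fold and 7.35-fold and Trbc2 by 2.67-fold and 7.29-fold. Their calls in naive mice were lost with the likelihood ratio test of edgeR (adjusted p = 0.128 and 0.233). After ComBat-Seq, the log2 fold changes in tolerant mice were smaller, though called, at 2.43 for Trac, 2.66 for Cd3g, 2.14 for Cd3d, 2.22 for Trbc1 and 2.24 for Trbc2, and with the share of reads outside genes as a covariate that of Cd3g was 2.80.

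Lck had the smallest called difference of the 10 genes in naive mice. It had 1820, 1526 and 1466 CPM in naive CD4+ T cells and 971, 725 and 629 CPM in naive CD45+CD4- cells, which did not overlap, and was 2.07-fold higher in the former (adjusted p = 0.0129). This call was lost without the second or the third CD45+CD4- library (adjusted p = 0.0962 and 0.141 by edgeR), without the first CD4+ library (0.0765), with the compared libraries only (0.174), after ComBat-Seq (0.056) and with the likelihood ratio test (0.439). In tolerant mice, the difference was 5.72-fold (adjusted p = 1.61e-14). Cd3e, Cd247 and Lat passed the test in tolerant mice, with 5.13-fold, 5.96-fold and 8.71-fold. The call of Cd247 was lost without the third tolerant CD45+CD4- library (adjusted p = 0.121 by edgeR) or the first tolerant CD4+ library (0.0558). In naive mice, their log2 fold changes were 1.47, 1.69 and 1.17 with adjusted p of 0.127, 0.198 and 0.148. There, Cd3e was called by DESeq2 and with the stricter filter, and Cd247 by DESeq2 and with the compared libraries only. Zap70, the kinase that docks on the CD3 chains, passed in neither, with log2 fold changes of 0.78 (SE 0.73) and 1.30 (SE 0.74), but was called in tolerant mice with the compared libraries only. In naive mice, every CD4+ library was higher than every CD45+CD4- library for 9 of the 10 genes, where 5.74% of all genes were, and in tolerant mice for 10 of 10, where 8.24% were.

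**Figure D2:**
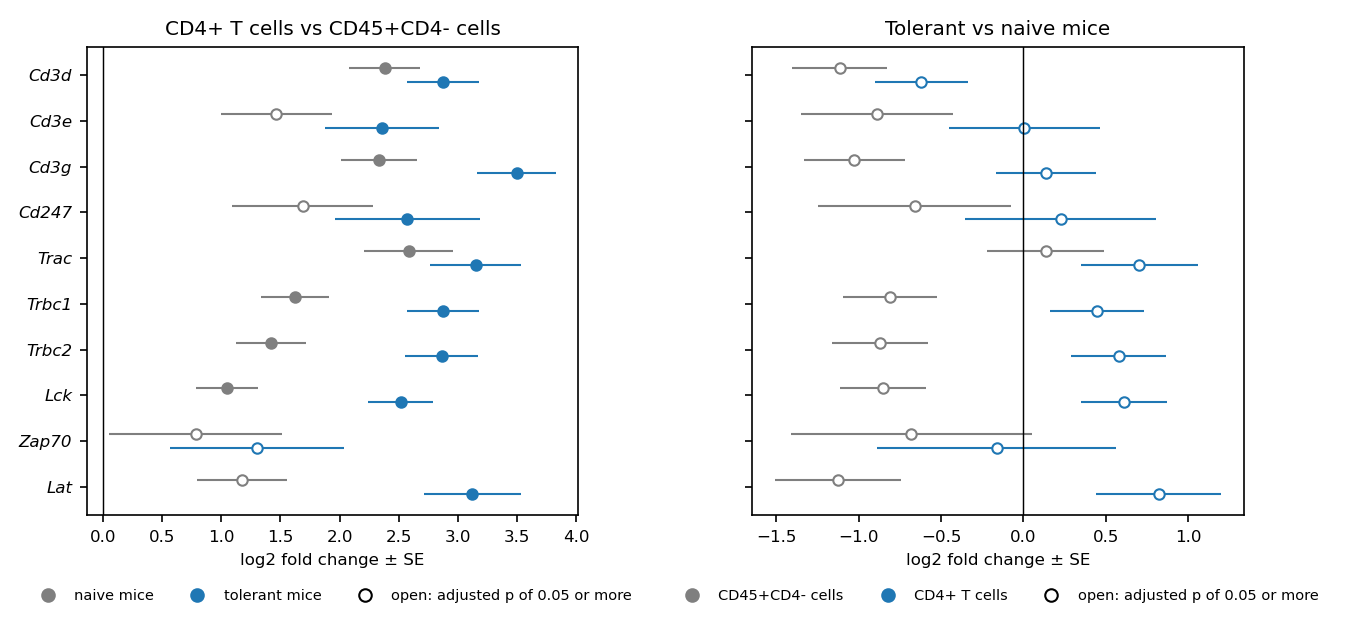
Log2 fold change with its standard error for each of the 10 genes, on the left for CD4+ T cells against CD45+CD4- cells in naive and in tolerant mice, on the right between tolerant and naive mice in each population, with filled symbols for an adjusted p under 0.05. On the left, every gene lies above 0, from 0.78 for Zap70 in naive mice to 3.497 for Cd3g in tolerant mice, and on the right no symbol is filled.

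Whether the genes changed with tolerance was asked in each Foxp3- population. In CD45+CD4- cells, 0 of the 10 genes were called between tolerant and naive mice, where 0.0355% of all genes were called, and 6 of 10 had an unadjusted p under 0.05, where 4.46% of all genes did. The log2 fold changes were below 0 for 9 of 10, with a median of -0.86 beside 0.00 over all genes. Trbc1 had 327, 349 and 286 CPM in tolerant and 503, 581 and 603 CPM in naive CD45+CD4- cells (log2 fold change -0.81, SE 0.29). Lck had 443, 495 and 348 CPM in tolerant libraries and 971, 725 and 629 CPM in naive ones (-0.85, SE 0.26). In 5 genes (Cd3e, Trbc1, Trbc2, Lck and Lat), every tolerant library was below every naive library, where 3.04% of all genes were. Trac went the other way, with 138 ± 63.6 CPM in naive and 151 ± 22.2 CPM in tolerant libraries (SD, n = 3).

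Cd3d in naive CD45+CD4- cells had 320, 195 and 964 CPM, so that the third library was far above the others. Without the first naive library, Cd3d and Cd3g were called lower in tolerant CD45+CD4- cells, and without the second naive or the second tolerant library Cd3d was called, while DESeq2 called Lck alone. The populations also differed in other markers. The summed CPM of 3 B cell markers (Ms4a1, Cd79a and Cd79b) was 1604 to 2605 in naive and 2614 to 3660 in tolerant libraries, and that of Cd8a and Cd8b1 was 370 to 760 and 225 to 325. All of these genes were detected in both populations. Their part in the lower values was not tested, and in bulk libraries fewer T cells and less RNA per T cell cannot be told apart. The 10 genes together took 0.349 to 0.401% of the counts in naive and 0.181 to 0.226% in tolerant libraries. Cd28, a costimulatory receptor outside the complex, was called lower, with 221 ± 75.2 CPM in naive and 59.6 ± 23.96 CPM in tolerant libraries (SD, n = 3, adjusted p = 0.0198, edgeR).

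In CD4+ T cells, 0 of 10 genes were called between tolerant and naive mice, where 0.107% of all genes were, and 5 had an unadjusted p under 0.05, where 7.01% of all genes did. These 5 did not point one way. Cd3d had 2025, 1326 and 1663 CPM in tolerant and 2527, 2525 and 2646 CPM in naive CD4+ T cells, with every tolerant library below every naive one (log2 fold change -0.62, SE 0.28, adjusted p = 0.692 by edgeR). Lck had 2265, 2901 and 2194 CPM in tolerant libraries and 1820, 1526 and 1466 CPM in naive ones, with every tolerant library above (0.61, SE 0.26). Lat had 875, 1155 and 928 CPM and 528, 479 and 667 CPM, again with every tolerant library above (0.82, SE 0.38). Trac and Trbc2 had log2 fold changes of 0.70 and 0.58. The median over the 10 genes was 0.34, beside -0.23 over all genes. Of the 10 genes, Cd3d alone had every tolerant library lower, where 5.18% of all genes did, and Trbc2, Lck and Lat had every tolerant library higher, where 4.45% did.

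The difference between both changes was tested as an interaction. None of the 10 genes was called (0.0473% of all genes were), and 5 had an unadjusted p under 0.05, where 5.14% of all genes did. All 10 values were above 0, meaning a change in CD4+ T cells higher than that in CD45+CD4- cells, with a median of 1.03 beside -0.15 over all genes. The largest was that of Lat (log2 1.95, SE 0.54, adjusted p = 0.253 by edgeR), followed by Lck (1.47, SE 0.37, adjusted p = 0.124) and Trbc2 (1.45, SE 0.41, adjusted p = 0.268). Lck was called when the third naive CD45+CD4- library was left out, and DESeq2 called Lck and Lat.

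Over all splenic libraries, Lck was lower in Tregs than in Foxp3- CD4+ T cells, while within naive mice alone the difference was not called. Its levels were 1267, 1388 and 1379 CPM in SP/naive, 953, 952 and 1184 CPM in SP/CD127-/lo and 1292, 970 and 1078 CPM in SP/CD127hi Tregs. All 9 libraries lay below the 6 libraries of CD4+ T cells, of which the lowest had 1466 and the highest 2901 CPM. The subsets shared mice, and tolerant mice gave 6 of the 9 Treg but 3 of the 6 CD4+ libraries. Tolerance thus weighs more among the Tregs, and its part was not tested. Over these libraries, Lck was 1.72-fold lower in Tregs (1163 ± 180 CPM, n = 9, against 2029 ± 540 CPM, n = 6; log2 -0.78, SE 0.17, adjusted p = 0.000857 by edgeR). It was the only one of the 10 genes called, where 1.83% of all genes were, and the only one with every Treg library lower, where 0.442% of all genes were. It was called in each of 15 fits without 1 library, with log2 fold changes from -0.82 to -0.69, and missed the threshold by edgeR's likelihood ratio test (adjusted p = 0.248).

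**Figure D3:**
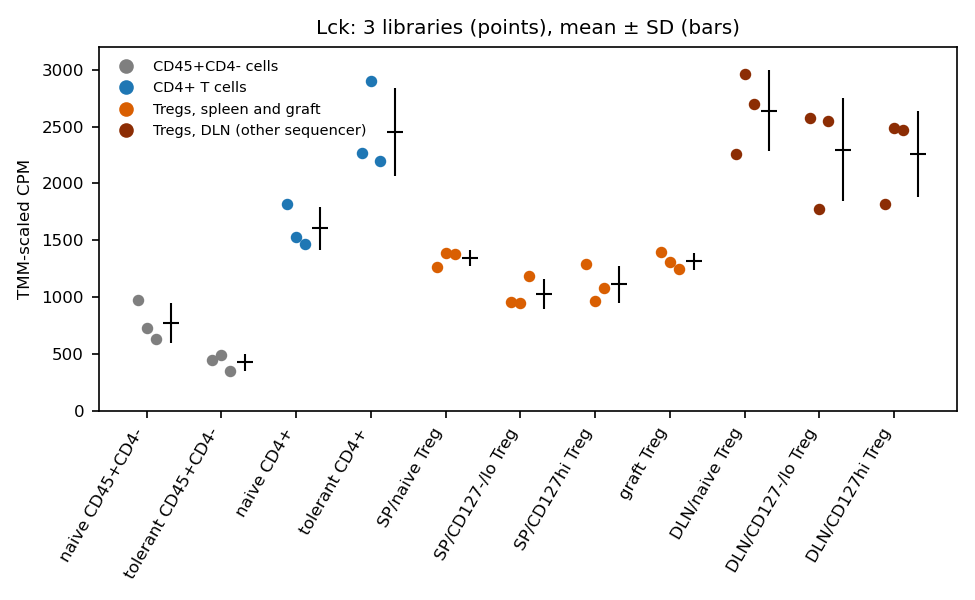
TMM-scaled CPM of Lck in each library of the 11 subsets (points), with the mean and SD of 3 libraries beside them. The 9 splenic Treg libraries lie between 952 and 1388 CPM and the 6 libraries of CD4+ T cells between 1466 and 2901 CPM, while the 9 DLN Treg libraries lie between 1772 and 2963 CPM.

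By subset, the difference in Lck was called within tolerant mice. Against tolerant CD4+ T cells, it was 2.38-fold lower in SP/CD127-/lo Tregs (log2 -1.25, SE 0.26, adjusted p = 0.00218 by edgeR) and 2.20-fold lower in SP/CD127hi Tregs (-1.14, SE 0.26, adjusted p = 0.0125). These comparisons share the tolerant CD4+ libraries, of which the second was the highest. Without that library, the adjusted p were 0.0596 and 0.16, and without the second or the third SP/CD127hi library that of SP/CD127hi Tregs was 0.14 or 0.116. Both calls were also lost with the likelihood ratio test (adjusted p = 0.443 and 0.476 by edgeR) and after ComBat-Seq (0.361 and 0.257). In naive mice, SP/naive Tregs were below naive CD4+ T cells by a log2 of -0.25 (SE 0.26) and were not called. Between 0.264% and 0.324% of all genes were called in the 3 comparisons, 0.264% in SP/naive, 0.284% in SP/CD127-/lo and 0.324% in SP/CD127hi Tregs.

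The other 9 genes were not called between splenic Tregs and CD4+ T cells. Cd3d and Trbc1 had unadjusted p of 0.0137 and 0.0115 over all splenic libraries, with log2 fold changes of -0.45 (SE 0.18) and -0.46 (SE 0.18), and the median over the 10 genes was -0.39 beside -0.08 over all genes. In SP/naive Tregs against naive CD4+ T cells, Cd3d (-0.82) and Trac (-0.85) had an unadjusted p under 0.05, which is 2 of 10 genes, where 6.71% of all genes did. In SP/CD127-/lo Tregs, the fold changes of Cd3d and Cd3g were above 0 and were not called. Cd3d had 3122, 2189 and 2110 CPM in them and 2025, 1326 and 1663 CPM in tolerant CD4+ T cells (log2 0.57, SE 0.28, adjusted p = 0.687 by edgeR), and Cd3g had a log2 fold change of 0.64 (SE 0.30, adjusted p = 0.605). For these 2 genes every SP/CD127-/lo library was higher, where 5.05% of all genes were, and for Lck, Zap70 and Lat every one was lower, where 6.28% were. The pooled values of Cd3d and Cd3g thus join subsets whose fold changes had opposite signs. SP/CD127hi Tregs had 8 of the 10 genes below every library of tolerant CD4+ T cells, all but Trac and Zap70, where 6.26% of all genes were. Among these 8, Trbc1 had 1060, 1230 and 1405 CPM against 2558, 2401 and 2123 CPM (log2 -0.94, SE 0.29, adjusted p = 0.17), and DESeq2 and a model of the compared libraries alone called it. Zap70 was separated in the other direction, with 172, 137 and 172 CPM in SP/CD127hi Tregs against 112, 118 and 119 CPM in tolerant CD4+ T cells, where 6.98% of all genes were, but was not called (log2 0.46, SE 0.73). The share of read pairs outside annotated genes was 35.8, 41.9 and 37.9% in SP/CD127hi Tregs and 27.8, 38.2 and 29.0% in tolerant CD4+ T cells. Its part in the separation of these libraries was not tested.

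Between CD127hi and CD127-/lo Tregs of the tolerant spleen, a contrast that the design names, Cd3d and Cd3g were lower in the CD127hi subset. Cd3d had 997, 1107 and 791 CPM in SP/CD127hi and 3122, 2189 and 2110 CPM in SP/CD127-/lo Tregs. The libraries did not overlap, and the difference was 2.56-fold (log2 -1.36, SE 0.29, adjusted p = 0.00834). Cd3g had 1017, 1307 and 827 CPM against 3973, 2299 and 2199 CPM, a difference of 2.69-fold (log2 -1.43, SE 0.31, adjusted p = 0.0107). These were 2 of the 10 genes, where 0.0907% of all genes were called. Cd3e, from the same cluster on chromosome 9, overlapped between the subsets, with 314, 374 and 371 CPM against 578, 322 and 411 CPM (log2 -0.31, SE 0.46). Trac (log2 -0.88, SE 0.36, adjusted p = 0.525) and Lck (0.11, SE 0.26) were not called, and 4 of the 10 genes had every SP/CD127hi library lower, where 4.53% of all genes did. Zap70 had every SP/CD127hi library higher, where 6.07% of all genes did, with 172, 137 and 172 CPM against 84.2, 104 and 109.6 CPM in SP/CD127-/lo Tregs (log2 0.69, SE 0.73).

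The libraries of both subsets differed in the share of uniquely mapped read pairs that fell outside annotated genes. It was 16.6, 30.5 and 30.8% in SP/CD127-/lo and 35.8, 41.9 and 37.9% in SP/CD127hi Tregs, without overlap. With this share as a covariate in the model, added after the data had been seen, the log2 fold changes were -0.69 for Cd3d and -0.50 for Cd3g, and neither was called (adjusted p = 0.876 and 1 by edgeR). Without the first SP/CD127-/lo library, which had the lowest share, the adjusted p were 0.216 and 0.654, and without the third SP/CD127hi library they were 0.0857 and 0.0951. Over the 6 fits without 1 library, the log2 fold changes ran from -1.47 to -1.16 for Cd3d and from -1.62 to -1.10 for Cd3g. Both calls were also lost with the likelihood ratio test, DESeq2, a stricter filter and ComBat-Seq, with directions kept. The summed CPM of 6 macrophage markers was 115 to 230 in SP/CD127hi and 6.29 to 298 in SP/CD127-/lo libraries. That of 3 B cell markers was 3.98 to 81.5 and 22.9 to 42.2, and 4 red cell genes reached 930 and 563 CPM. The part of these markers was not tested.

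**Figure D4:**
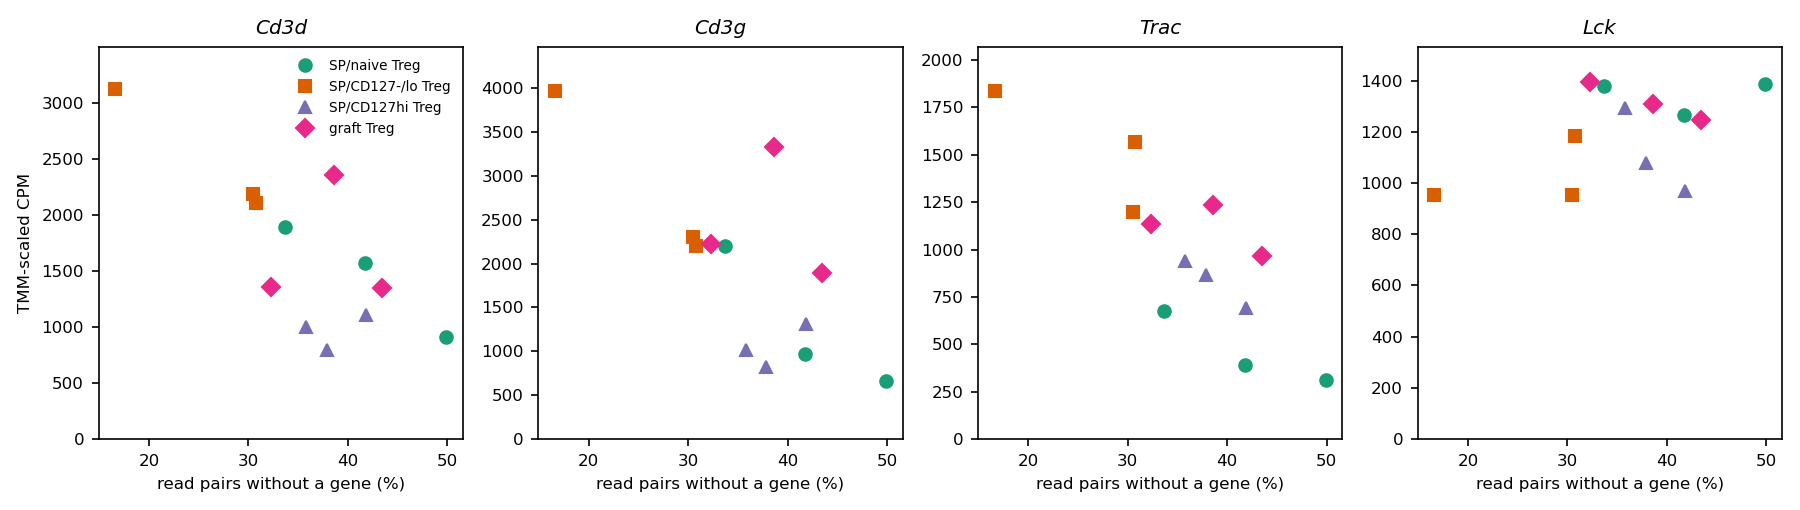
TMM-scaled CPM of Cd3d, Cd3g, Trac and Lck (linear axis from 0) against the share of read pairs outside annotated genes, in percent, in each of the 3 libraries of SP/naive, SP/CD127-/lo, SP/CD127hi and graft Tregs. SP/CD127-/lo Tregs, with 16.6 to 30.8%, and SP/CD127hi Tregs, with 35.8 to 41.9%, do not overlap on the horizontal axis.

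Over all 33 libraries, the deviations of log2 CPM from the subset means went with the same share in most of the genes. Pearson's r of these deviations with the deviation of the share was -0.751 for Cd3g, -0.734 for Trbc1, -0.669 for Cd3d, -0.661 for Trac and -0.643 for Trbc2. It was -0.278 for Lck, -0.192 for Lat and 0.395 for Zap70. In the spleen and graft libraries alone, r was -0.684 for Cd3g, -0.638 for Trac, -0.553 for Trbc1, -0.545 for Cd3d and -0.523 for Trbc2. There it was 0.035 for Lck, -0.248 for Lat and 0.107 for Zap70. With the deviation of log2 depth, r over all 33 libraries ran from -0.223 for Lat to 0.618 for Cd3g. These values are descriptions over libraries that share depth and preparation, without a test. Lck, with an SD of 0.22 on the log2 scale, varied least within subsets and Zap70, with 1.35, most. Among pairs of the 10 genes, Cd3d and Cd3g had an r of 0.834 and Trac and Trbc2 of 0.83.

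Trac differed between SP/CD127-/lo and SP/naive Tregs. It had 1839, 1200 and 1567 CPM in the former and 389, 313 and 676 CPM in the latter. The libraries did not overlap, and Trac was 3.34-fold higher in SP/CD127-/lo Tregs (log2 1.74, SE 0.37, adjusted p = 0.00607 by edgeR), the one call among the 10 genes where 0.071% of all genes were called. For Cd3g, the log2 fold change was 1.14 (adjusted p = 0.186), and it was called as well when the third SP/naive library was left out. SP/naive libraries had 33.7 to 49.9% of reads outside genes, and with this share as a covariate the log2 fold change of Trac was 1.05 (adjusted p = 0.746 by edgeR). The call was also lost without the first or the second SP/naive library (adjusted p = 0.107 and 0.249) and without the first SP/CD127-/lo library (0.106). The likelihood ratio test, ComBat-Seq and the stricter filter did not call Trac either. In SP/CD127hi against SP/naive Tregs, 0 of 10 genes were called, where 0.0197% of all genes were, and 2 had an unadjusted p under 0.05 (5.09% of all genes), with Trac at a log2 fold change of 0.86 (adjusted p = 0.733).

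Graft Tregs, from the transplanted tissue itself, were compared with each splenic Treg subset, and 0 of the 10 genes were called in any of the 3 comparisons. In these, 0.13% (against SP/naive), 0.103% (against SP/CD127hi) and 0.0829% (against SP/CD127-/lo) of all genes were called. Cd3g had 2221, 3329 and 1898 CPM in graft Tregs, above every library of SP/CD127hi Tregs (log2 1.24, SE 0.31, adjusted p = 0.06). It was called there with RLE scaling, without a filter, without the second SP/CD127hi or without the third graft library. Trac had 1133, 1234 and 968 CPM in graft Tregs, above every library of SP/naive Tregs (log2 1.27, SE 0.36, adjusted p = 0.161). In the same comparison, Cd3g was called without the third SP/naive library. With the replicate number as a block, 2 of the 10 genes were called against SP/naive and 1 against SP/CD127hi Tregs. Against SP/CD127-/lo Tregs, Trbc1 and Trbc2 had log2 fold changes of -0.58 and -0.67. In each of the 3 comparisons, 2 of 10 genes had an unadjusted p under 0.05, where 7.93%, 8.73% and 7.66% of all genes did, against SP/naive, SP/CD127hi and SP/CD127-/lo Tregs respectively. Of 5 markers of kidney epithelium, Kap, an androgen-regulated kidney gene, had 114, 887 and 13.4 CPM in graft Tregs and at most 0.289 CPM in splenic Tregs. The other 4 (Lrp2, Slc34a1, Miox and Umod) had at most 1.49 CPM in any graft library, and all 5 were at 0 in SP/CD127-/lo Tregs. The part of these markers in the values above was not tested.

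In the DLN, none of the 10 genes was called between the same subsets. Between DLN/CD127hi and DLN/CD127-/lo Tregs, 0 of 10 were called and 0 had an unadjusted p under 0.05, where 0.418% of all genes were called and 8.75% had such a p. Against DLN/naive Tregs, 0 were called in DLN/CD127hi and 0 in DLN/CD127-/lo Tregs, where 0.951% and 0.355% of all genes were. The DLN/naive mice were female and the others male, so that sex and tolerance cannot be told apart in these comparisons. Lat had an unadjusted p under 0.05 in the former (log2 0.79, SE 0.38), where 10.6% of all genes did, and no gene did in the latter, where 8.79% did. Cd3d had 1642, 1555 and 1936 CPM in DLN/CD127hi and 1926, 1038 and 3464 CPM in DLN/CD127-/lo Tregs. The latter subset spread over the range of the former and beyond it on both sides. Zap70 had 91.5, 100 and 1.04 CPM in DLN/CD127hi, 163, 155 and 31.1 CPM in DLN/CD127-/lo and 7.10, 160 and 43.4 CPM in DLN/naive Tregs. Its values spread widely within each DLN subset, and the lowest of them was below the 1.55 to 3.55 CPM that a count of 0 allows in these libraries. DLN/CD127hi libraries held 121 to 257 CPM of the 3 B cell markers and 600 to 871 CPM of 6 macrophage markers, while DLN/CD127-/lo libraries held 59.7 to 78.5 and 18.8 to 651 CPM. Most of the macrophage sum was Lyz2, with 535, 757 and 716 CPM in DLN/CD127hi and 112, 611 and 16.4 CPM in DLN/CD127-/lo libraries. Cd79b had 199, 135 and 119 CPM in DLN/CD127hi and 74.7, 12.9 and 0 CPM in DLN/CD127-/lo libraries, and C1qc had 23.4, 31.5 and 17.6 against 1.09, 27.9 and 0 CPM. Cd79a was at 0 in 1 library of each subset, and Csf1r, Adgre1 and C1qa were each at 0 in 1 DLN/CD127-/lo library. The part of these markers was not tested. The median log2 fold change of the 10 genes against DLN/naive Tregs was -0.18 in DLN/CD127hi and -0.03 in DLN/CD127-/lo Tregs, beside 0.40 and 0.58 over all genes.

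The difference between CD127hi and CD127-/lo Tregs was compared between spleen and DLN as an interaction. It was -1.03 (SE 0.40, adjusted p = 0.45) for Cd3d and -1.15 (SE 0.43, adjusted p = 0.406) for Cd3g by edgeR, on the log2 scale, with the lower value in the spleen. None of the 10 genes was called, where 0.118% of all genes were, and these 2 had an unadjusted p under 0.05, where 7.82% of all genes did. A difference between the organs was therefore not shown at this depth, although both genes were called without the third DLN/CD127-/lo library, which had the highest Cd3d of all libraries. Lck had 2262, 2963 and 2701 CPM in DLN/naive, 2578, 1772 and 2545 CPM in DLN/CD127-/lo and 1819, 2483 and 2468 CPM in DLN/CD127hi Tregs. All 9 were above the 9 splenic Treg libraries, but organ and sequencer cannot be told apart there, and no test was made.

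The share of Trbc1 in the counts of both beta chain constant genes does not depend on how libraries are scaled. It was 47.8 ± 4.29% in splenic Tregs (n = 9) and 53.1 ± 4.60% in splenic CD4+ T cells (SD, n = 6), a difference of -5.31 percentage points (exact 2-sided permutation test over 5005 arrangements, p = 0.04635). These arrangements exchange libraries of naive and of tolerant mice, of which the latter gave 6 of the 9 Treg but 3 of the 6 CD4+ libraries. They also treat the libraries as independent, although the subsets shared mice. With exchanges only within naive and within tolerant mice, added after the data had been seen, the exact p was 0.02976 over 1680 arrangements. The difference was -1.46 percentage points in naive mice (3 against 3 libraries, exact permutation p = 0.9, where the smallest possible is 0.1) and -6.85 in tolerant mice (6 against 3 libraries, exact permutation p = 0.02381), and whether it differed between them was not tested. The 6 Treg libraries of tolerant mice were those of SP/CD127-/lo and SP/CD127hi Tregs. They came from the same group of mice but were exchanged as independent units, so that this p may be too small. With exchanges over all libraries, leaving out 1 library gave differences from -6.23 to -3.72 percentage points, with exact p from 0.01598 to 0.11588, and the p was above the threshold without any 1 of 10 of the 15 libraries. The difference thus rests on no single library in direction and on several in its call. It was smallest without the first library of naive CD4+ T cells, which had 61.0% (Wilson 95% interval 60.1 to 61.9%). By subset, the means were 52.4% in SP/naive, 44.4% in SP/CD127-/lo, 46.6% in SP/CD127hi and 45.9% in graft Tregs, against 53.9% in naive and 52.3% in tolerant CD4+ T cells. SP/naive Tregs, with 52.5, 55.2 and 49.5%, lay within the range of CD4+ T cells, and the 3 libraries of SP/CD127-/lo Tregs had 44.0, 43.3 and 45.8%. Means were 51.5% in naive and 52.2% in tolerant CD45+CD4- cells and 54.1 to 55.4% in DLN Tregs. Reads that fit both genes are not part of these counts, and intervals cover counting error only.

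**Figure D5:**
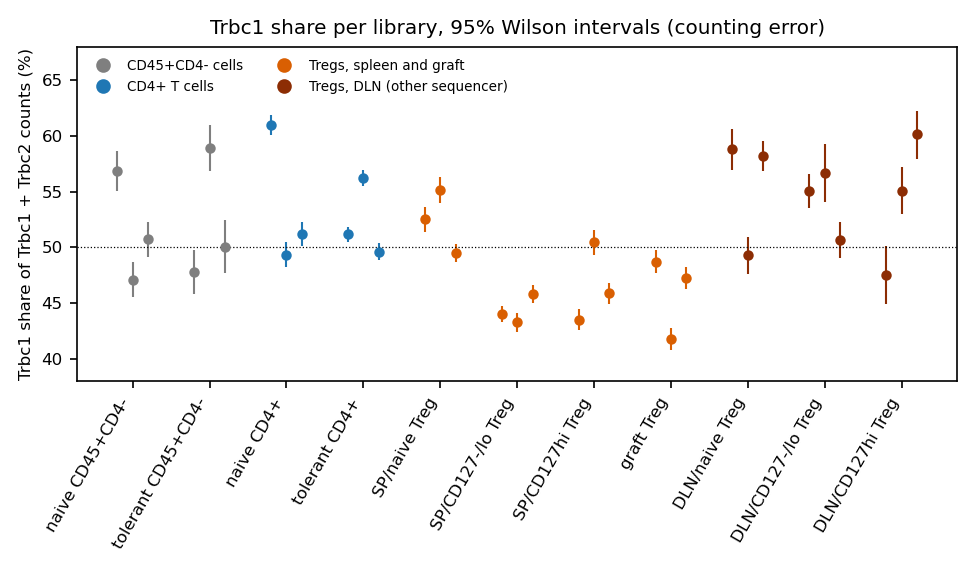
Share of Trbc1 in the counts of Trbc1 and Trbc2 in each library of the 11 subsets, in percent with Wilson 95% intervals of the counts, on an axis that does not start at 0. SP/CD127-/lo Tregs lie between 43.3 and 45.8%, and the 6 libraries of CD4+ T cells between 49.4 and 61.0%.

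Other genes of the pathway were followed as 5 lists, beside 1.04% of all genes called between CD4+ T cells and CD45+CD4- cells in naive and 1.53% in tolerant mice. Of 20 other kinases and adaptors, 3 were called higher in CD4+ T cells than in CD45+CD4- cells of naive mice (Skap1, Fyb and Trat1) and 6 of tolerant mice (these 3, Txk, Themis and Lcp2), while Syk, the relative of Zap70 used by B cells, was lower in both. Of 8 coreceptors and costimulatory receptors, 3 were higher in naive (Cd4, Cd2 and Cd28) and 4 in tolerant mice (these and Cd5), and Cd8a was lower in both. Of 14 genes downstream, 0 were called in naive mice, and 1 was lower in tolerant mice, Ppp3ca, a catalytic subunit of calcineurin, with 104 ± 15.1 CPM in CD4+ T cells and 445 ± 78.9 CPM in CD45+CD4- cells. Of 14 genes that restrain signalling, Ptpn6, a phosphatase, was lower in CD4+ T cells in both (adjusted p = 0.0131 and, rounded, 0.05), and Dgka, which removes diacylglycerol, was higher in tolerant mice. Of 4 gamma delta constant genes, Trdc was called, with 0 counts in the 3 libraries of naive CD4+ T cells and 22.3, 30.3 and 40.2 CPM in naive CD45+CD4- cells.

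Between splenic Tregs and CD4+ T cells, 2 of the 20 other kinases and adaptors were lower beside Lck, and none was higher, where 1.83% of all genes were called. Themis, an adaptor of thymocyte signalling, had 62.4 ± 36.1 CPM in Tregs (n = 9) and 467 ± 94.6 CPM in CD4+ T cells (n = 6; log2 -2.91, adjusted p = 1.37e-08 by edgeR). Txk, a kinase of the Tec family that acts after Lck, had 262 ± 97.3 CPM in Tregs against 959 ± 431 CPM in CD4+ T cells (log2 -1.80, adjusted p = 9.15e-08 by edgeR). Of the 14 restraining genes, Dgka was lower (log2 -0.83) and Sla, an adaptor that promotes turnover of the receptor, was higher (log2 1.60, adjusted p = 0.00129). The median over the 20 kinases and adaptors was -0.07, beside -0.08 over all genes. In SP/CD127hi against SP/CD127-/lo Tregs, 1 gene of all the lists was called where 0.0907% of all genes were, Cd2, an adhesion receptor, with 373 ± 211 and 1378 ± 609 CPM (log2 -1.89, adjusted p = 0.0247 by edgeR). The deviations of Cd2 from its subset means also went with the share of reads outside genes, with an r of -0.75. Txk and Themis were also called lower in SP/naive Tregs than in naive CD4+ T cells (log2 -2.05 and -3.13). Against tolerant CD4+ T cells, Txk was called lower in SP/CD127-/lo Tregs (log2 -1.76, adjusted p = 0.0257 by edgeR) and Themis in SP/CD127hi Tregs (log2 -3.00, adjusted p = 0.0102). Cd8a was called lower over all splenic Tregs as well, but had at most 0.338 CPM in them and at most 6.65 CPM in CD4+ T cells. In the DLN, Cd8a was called higher in DLN/CD127hi than in DLN/CD127-/lo Tregs, with 144 CPM in 1 library and at most 1.04 CPM in the other 2. Cd8b1, the beta chain of the same coreceptor, was called against DLN/naive Tregs, with 41.9, 0.788 and 119 CPM in DLN/CD127hi and 0 counts in all 3 DLN/naive libraries. In the interaction of CD127 with organ, Tcrg-C4, a gamma chain constant gene, was the one gene of the lists called (adjusted p = 0.0148 by edgeR), with 23.4, 0 and 39.3 CPM in SP/CD127-/lo Tregs, 0 counts in SP/CD127hi Tregs, 0, 41.8 and 0 CPM in DLN/CD127hi Tregs and at most 0.545 CPM in DLN/CD127-/lo Tregs.

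The genes most like the 10 in their pattern were found from the mean of their standardized log2 CPM. Over the 11 subset means, the highest Pearson's r among 5987 genes with a mean log2 CPM of at least 4 were those of Cd4 (0.965), Xlr4c (0.961), Trbv3 (0.959), Ms4a6b (0.957), Bnip3l (0.954), Trat1 (0.954), Ms4a4b (0.953) and Gimap4 (0.949). Over the 27 libraries of Tregs and CD4+ T cells alone, they were those of Cfl1 (0.872), Ppp4c (0.862), Cdc42 (0.826), Scp2 (0.813), Ube2b (0.811), Slc25a5 (0.81), Rpl3 (0.806) and Mettl23 (0.804). No gene was named in both. The mean contains the 10 genes themselves, 7 of them receptor chains. Over the 27 libraries, its r with these chains ran from 0.499 for Cd3d to 0.919 for Trbc2, and it was 0.417 for Lat, 0.104 for Zap70 and -0.048 for Lck. These values are descriptions over means and libraries that share depth and preparation.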

How the data were processed

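Per the study's methods, the authors used Trim Galore for trimming and STAR for alignment to mm10, to which EGFP was added, with Ensembl genes as features. HTSeq is named for the counting, while the deposited files look like the gene counts of STAR. Versions are not given in the sources used here. The deposited values are unnormalized counts per gene of read pairs. Of these, the column that ignores strand was used, since the strand columns were about equal. Without strand, read pairs where exons of Cd247 and Pou2f1, or of Cd3e and Gm48719, overlap on opposite strands are ambiguous.

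The analysis used edgeR 4.0.16 in R 4.3.3 (DESeq2 1.42.0, limma 3.58.1 and sva 3.50.0 for alternatives) and Python 3.11.15. A gene was kept if any library reached 1 CPM, which held for 25347 genes. TMM factors were computed, and 1 model with a mean per subset was fitted to all 33 libraries. Each of 19 comparisons was tested with the quasi-likelihood test at an adjusted p under 0.05. The test was first run on simulated data. Fold changes are those of the fit, and a prior count of 2 was used for the log2 CPM only. Positions and exon lengths came from GENCODE vM21. The alternatives were the likelihood ratio test, DESeq2, RLE scaling, no filter, a filter of 10 counts in 3 libraries, only the compared libraries, ComBat-Seq with the sequencer as batch, a replicate block, leaving out each library, and the share of reads outside genes as a covariate. The covariate, both interactions and the restricted exchanges in the test of the Trbc1 share were added after the data had been seen. The 10 genes and the lists were chosen with earlier results of these data known. All 10 genes were tested in every comparison, and other genes of the lists were named where they passed the test. A gene of the pathway lists and one of the marker lists are not reported here and were left out of their counts and sums.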

Additional observations from a re-analysis of the deposited data

How the results depend on the processing

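The direction of every called gene was kept under all alternatives, and 21 calls of the 10 genes over 19 comparisons became 12 with the likelihood ratio test, 25 with DESeq2, 22 with RLE scaling, 23 without a filter, 19 with the stricter filter, 23 with the compared libraries only, 15 after ComBat-Seq and 18 with the share of reads outside genes as a covariate. Depth was lowest in the DLN, with totals of 844039 to 1935323. The causes of the changes below were not tested.

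With the likelihood ratio test, 3 genes (Cd3d, Cd3g and Trac) in place of 6 were called between naive CD4+ T cells and CD45+CD4- cells, and 0 in each comparison of Tregs named in the report. After ComBat-Seq, 0 were called between either tolerant splenic Treg subset and CD4+ T cells, between SP/CD127hi and SP/CD127-/lo and between SP/CD127-/lo and SP/naive Tregs. The stricter filter and the covariate also left 0 calls in the last 2 of these, and DESeq2 0 between SP/CD127hi and SP/CD127-/lo Tregs. Between CD4+ T cells and CD45+CD4- cells, DESeq2 called 8 and the stricter filter 7 in naive mice, and the compared libraries alone gave 10 in place of 9 in tolerant mice. More were also called by DESeq2 between tolerant and naive CD45+CD4- cells (1), between SP/CD127hi Tregs and CD4+ T cells (2, also with the compared libraries only) and in the interaction of tolerance with population (2). Without a filter, 2 were called between SP/CD127-/lo and SP/naive Tregs and 1 between graft and SP/CD127hi Tregs, the latter also with RLE scaling.

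Same-numbered libraries had correlations of their deviations from -0.152 to 0.231, and in 0 of 16 comparisons were all 3 over 0.1, so that the numbers were not taken as pairs, although in 3 of the 16 every library correlated best with its own number. With the replicate number as a block, 26 calls were made, 2 between SP/CD127-/lo and SP/naive Tregs, 2 between graft and SP/naive Tregs, 1 between graft and SP/CD127hi Tregs and 1 in the interaction of tolerance with population.

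Leaving out 1 library gave 0 to 2 calls between tolerant and naive CD45+CD4- cells, between SP/CD127hi and SP/CD127-/lo Tregs, between SP/CD127-/lo and SP/naive Tregs and in the interaction of CD127 with organ. It gave 0 to 1 between either tolerant splenic Treg subset and CD4+ T cells, between graft and SP/naive or SP/CD127hi Tregs and in the interaction of tolerance with population. The difference in the Trbc1 share was -4.99 percentage points from the first strand column alone (exact p = 0.05235), -5.59 from the other (exact p = 0.03956) and -6.23 to -3.72 without 1 library.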
